A study of Mus musculus with 6 samples.

Results

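Intermediate filament genes of progenitors, astrocytes and neurons were followed in GFP-positive cells sorted from mouse hippocampus. The set holds 7 genes chosen by symbol: Nes, Vim, Gfap, Ina, Nefl, Nefm and Nefh. All 7 were found among the 20323 genes that carried values. All animals were Nestin-CreERT2;Rosa26-mGFP mice, in which a Cre recombinase driven by the Nestin promoter and activated by tamoxifen switches on a membrane GFP, so that neural progenitors and the cells they give rise to are marked. Every animal received a cuprizone diet for 10 weeks and then 4 weeks of recovery; cuprizone is a copper chelator that removes myelin. The 3 vehicle animals were given 0.1% bovine serum albumin in saline. The 3 treated animals were given neuregulin 1 beta 1 (Nrg-1β1), a ligand of ErbB receptors, at 60 µg per kg per day according to the series text, while the sample labels print the same number in grams. Each library was taken to come from the brain of a single mouse after magnetic sorting for GFP. The labels used here give neither age nor sex. The comparison asks how Nrg-1β1 treatment altered the transcripts of these sorted cells after long demyelination.

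Intermediate filaments are rope-like polymers that give a cell mechanical strength, and their composition changes as a cell matures. Nestin (Nes) and vimentin (Vim) are made by neural stem cells and progenitors, and glial fibrillary acidic protein (Gfap) by astrocytes and by the radial glia-like stem cells of the dentate gyrus. Neurons assemble α-internexin (Ina) with the neurofilament light, medium and heavy chains (Nefl, Nefm and Nefh). Nestin and vimentin are not restricted to neural progenitors, because endothelial cells, pericytes and, for vimentin, fibroblasts and microglia also make them.

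The libraries differed in depth and in the cell types they carried. Vehicle libraries 1 and 3 were deep, so that the recovered reads ran from 1075813 to 72953034 in the vehicle group and from 567073 to 1327003 in the Nrg-1β1 group, and a single read was worth between 0.0605 and 5.17 normalized counts. The labelled cell type is neural progenitor, and all 9 progenitor and stem cell markers had reads in both groups, but so did all 6 oligodendrocyte, all 6 microglial and all 8 endothelial markers. Sex-linked transcripts also differed. Vehicle libraries 1 and 2 held 3255 and 216 reads of Xist, which is expressed from the inactive X chromosome, and 82 and 1 of the Y-linked Ddx3y, vehicle library 3 held 1045 and 1994, and the Nrg-1β1 libraries held 1 to 3 and 15 to 29. Depth, sex-linked transcripts and treatment therefore cannot be told apart in full here. Vehicle library 3 held Xist together with Y-linked reads, which also included 816 of Eif2s3y, 558 of Kdm5d and 395 of Uty. Whether it came from a single animal was not tested.

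None of the 7 genes passed an adjusted p of 0.05 between Nrg-1β1 and vehicle, a threshold passed by 1.06% of all genes (limma with an intensity trend). The progenitor filament genes Nes and Vim had the largest differences, both negative. Gfap and Nefh had positive differences of about the same size as each other, and Ina and Nefl had smaller ones. Nefm had a small negative difference. The median difference of the 7 genes was 0.15 on the log2 scale, beside 0.03 over all genes. Expression values are log2(normalized count + 4), and each difference is Nrg-1β1 minus vehicle on that scale. The groups did not overlap for 1 of the 7 genes, Nes, which was lower in every Nrg-1β1 library. Over all genes the groups did not overlap for 17.7%, with Nrg-1β1 lower for 10.4% and higher for 7.37%.

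**Figure D1:**
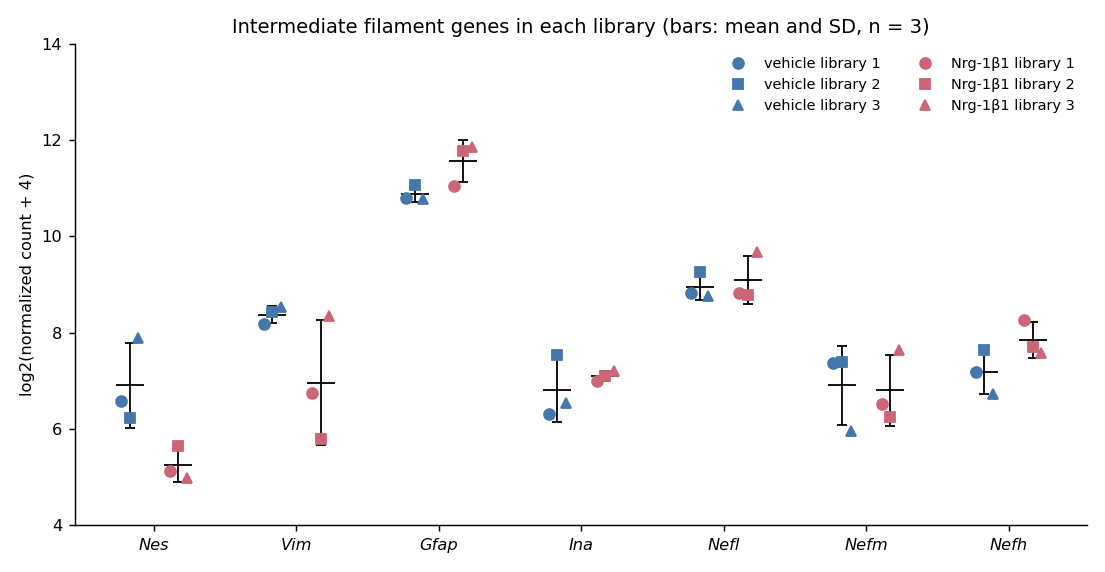
Expression of the 7 intermediate filament genes in each library, as log2(normalized count + 4) on the vertical axis; points are libraries, and bars give the mean and SD of 3 libraries. The 3 Nrg-1β1 points lie below all 3 vehicle points for Nes, from 4.97 to 5.64 against 6.23 to 7.89, while the groups overlap for the other 6 genes.

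Nes encodes nestin, the filament protein whose promoter drives the Cre in these animals. Vehicle libraries 1 to 3 had normalized counts of 91.9, 71.0 and 234, against 31.0, 46.0 and 27.3 in Nrg-1β1 libraries 1 to 3. Every Nrg-1β1 library was below every vehicle library, and vehicle library 3 stood well above the other vehicle libraries. Behind the vehicle values stood 1518, 23 and 3869 reads, and behind the Nrg-1β1 values 6, 9 and 9. Mean log2 values were 6.90 ± 0.88 for vehicle, against 5.25 ± 0.35 for Nrg-1β1 (SD, n = 3 per group), a difference of -1.65 ± 0.42 (SE, 95% interval -2.53 to -0.78) that missed the threshold (adjusted p = 0.0582, limma). A p smaller than that of Nes was found for 1.52% of all genes. In pooled reads the vehicle level was 4.85 times the Nrg-1β1 level. The counting interval of 3.26 to 7.58 (95%, exact Clopper-Pearson) leaves out the spread between animals. Deep vehicle libraries 1 and 3 held 1518 and 3869 of the 5410 pooled vehicle reads. In the libraries of like depth, vehicle library 2 against the Nrg-1β1 libraries, the difference was smaller at -0.98, and with vehicle library 3 in place of library 2 it was -2.65. In sorted cells measured in bulk, fewer cells of a type and less RNA per cell cannot be told apart.

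Vim encodes vimentin, the filament of immature glia and of mesenchymal cells. Normalized counts in libraries 1 to 3 were 284, 339.6 and 365 for vehicle, against 103, 51.1 and 322 for Nrg-1β1. The vehicle libraries lay close together, Nrg-1β1 libraries 1 and 2 lay far below them, and Nrg-1β1 library 3 lay inside the vehicle range. The reads behind the Nrg-1β1 values were 20, 10 and 106, against 4686, 110 and 6043 in vehicle. Mean log2 values were 8.37 ± 0.19 for vehicle, against 6.96 ± 1.30 for Nrg-1β1 (SD, n = 3 per group); whether the spreads differ was not tested. The difference of means was -1.41 ± 0.44 (SE, 95% interval -2.35 to -0.48, adjusted p = 0.135, limma). It moved to -0.83 without Nrg-1β1 library 2 and to -2.11 without library 3. Between libraries of like depth it was -1.47. In pooled reads, scaled for depth, the vehicle level was 1.72 times the Nrg-1β1 level (counting interval 1.45 to 2.05). Nrg-1β1 library 3 held 106 of the 136 pooled Nrg-1β1 reads.

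Nes and Vim were also set beside markers of vascular, fibroblast, microglial and ependymal cells. Of 8 endothelial markers 6 fell and 0 rose, with a median difference of -2.57, where 0.625% of all genes fell and 0.438% rose. Summed over these markers, vehicle libraries 1 to 3 had normalized counts of 999.7, 540.2 and 2516, against 103, 123 and 125 in Nrg-1β1 libraries 1 to 3. The vehicle libraries had the same order for the endothelial sum as for Nes, with library 3 highest and library 2 lowest, and the pericyte, fibroblast and ependymal sums had this order too. The endothelial sum of Nrg-1β1 library 3 was as low as that of the other treated libraries, whereas its Vim level was in the vehicle range. Of 7 pericyte and smooth muscle markers 1 fell, Vtn, which encodes vitronectin, and the summed count ranged from 176 to 434 in vehicle and from 61.3 to 106 in Nrg-1β1. Kcnj8, a pericyte gene, was at 0 reads in every Nrg-1β1 library and also in vehicle library 2 of like depth, and vehicle libraries 1 and 3 held 59 and 115. The 4 fibroblast markers summed to between 71.0 and 233 in vehicle and between 24.3 and 66.4 in Nrg-1β1, and none of them passed. Of 6 microglial markers 5 fell, with sums of 4819 to 7083 in vehicle and 1772 to 2304 in Nrg-1β1. The 4 ependymal markers, of which none passed, summed to 123 in vehicle library 2, inside the 112 to 139 of the Nrg-1β1 libraries, and to 514 and 687 in vehicle libraries 1 and 3. With 1 library left out, the count of endothelial markers that fell was 3 without vehicle library 1 and 0 without any of the other 5, and that of microglial markers 1 and 0. For pericyte and smooth muscle markers it was 1 without vehicle library 1 and 0 without any of the other 5. With both limma-voom fits, and with read depth class as a term, the count was 0 for endothelial, microglial and pericyte markers alike. The part of these cell types in the Nes and Vim differences was not tested.

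**Figure D2:**
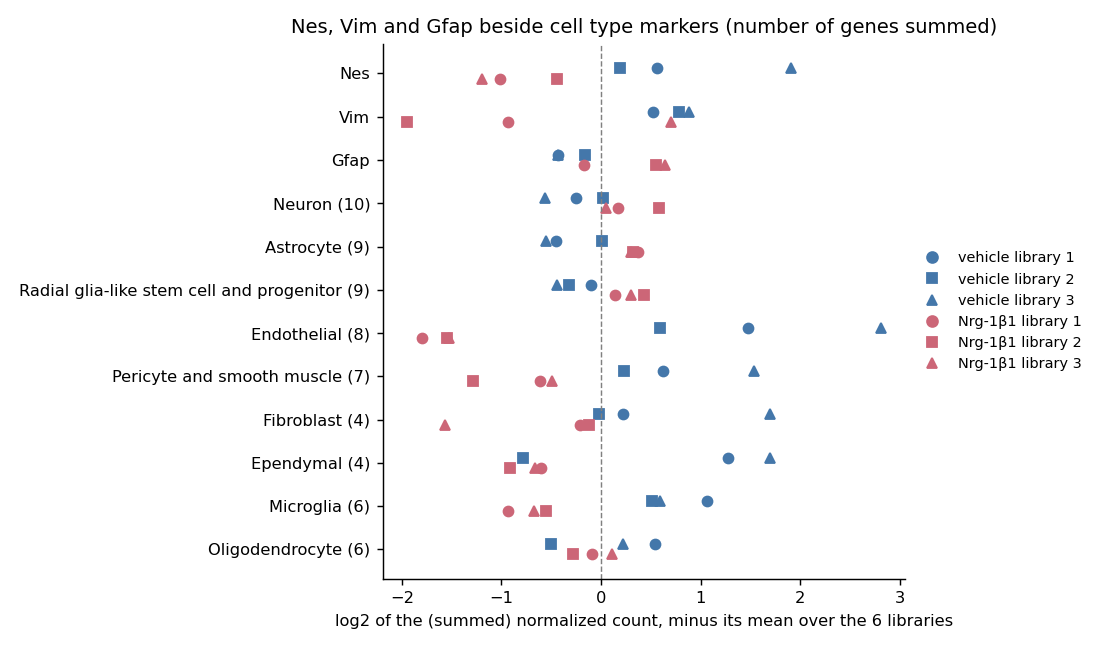
Normalized counts of Nes, Vim and Gfap and summed normalized counts of marker genes in each library, as log2 minus the mean over the 6 libraries (horizontal axis); the number of genes summed is in brackets, colours mark the group and shapes the library. Nes and the endothelial sum have vehicle library 3 farthest to the right, and Gfap and the astrocyte sum have the Nrg-1β1 libraries on the right, apart from Nrg-1β1 library 1 for Gfap.

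Progenitor markers other than nestin did not show the same direction. Of 9 genes, 6 had a positive and 3 a negative difference, with a median of 0.47. Nr2e1, which encodes the stem cell transcription factor Tlx, rose by 1.56 ± 0.36 (SE, adjusted p = 0.0438, limma), with mean log2 values of 6.62 ± 0.34 for vehicle, against 8.18 ± 0.78 for Nrg-1β1 (SD, n = 3 per group). It had 64, 89 and 51 reads in the Nrg-1β1 libraries, more than in vehicle library 2, which had 40 at a comparable depth. Hopx, a gene of quiescent dentate stem cells, differed by 0.76 and Dcx, a gene of migrating neuroblasts, by 1.23, and Prom1, which encodes prominin 1 and is also made by ependymal cells, by -1.58, all without passing. Between libraries of like depth the Nr2e1 difference was smaller, at 1.19. The Nr2e1 call was lost whenever 1 library was left out (adjusted p 0.102 to 0.419) and with read depth class as a term. With all 6 libraries it was also lost with a pseudocount of 1 (0.0669) or 16 (0.0546), among genes averaging at least 50 (0.0752), after quantile normalization (0.118) and with limma-voom (0.0645 and 0.0911).

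The promoters of Nes, Vim and Gfap are shown because these genes had the largest differences, and they differ in the short sequences matched below. Sequences are RefSeq's, build GRCm38.p6, from 250 bases before to 50 bases after the gene start, 5′ to 3′ on the gene's strand. Capitals mark matches, on either strand, to the TATA box TATAAA, the CCAAT box CCAAT, the GC box GGGCGG, the AP-1 site TGANTCA and the STAT site TTCNNNGAA.
Nes, chr3:87970843-87971142, plus strand: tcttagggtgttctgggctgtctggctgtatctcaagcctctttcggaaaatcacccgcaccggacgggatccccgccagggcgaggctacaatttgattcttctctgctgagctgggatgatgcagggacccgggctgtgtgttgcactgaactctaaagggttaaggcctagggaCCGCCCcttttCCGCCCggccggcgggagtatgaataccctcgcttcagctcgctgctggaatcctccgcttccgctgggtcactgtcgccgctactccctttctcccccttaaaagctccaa
Vim, chr2:13574061-13574360, plus strand: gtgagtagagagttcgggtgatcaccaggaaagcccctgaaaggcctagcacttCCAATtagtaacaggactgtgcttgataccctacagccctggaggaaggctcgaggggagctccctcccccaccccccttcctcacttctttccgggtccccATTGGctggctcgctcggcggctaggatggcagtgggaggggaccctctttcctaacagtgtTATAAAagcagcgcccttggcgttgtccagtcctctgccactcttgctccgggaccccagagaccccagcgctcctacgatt
Gfap, chr11:102897151-102897450, minus strand: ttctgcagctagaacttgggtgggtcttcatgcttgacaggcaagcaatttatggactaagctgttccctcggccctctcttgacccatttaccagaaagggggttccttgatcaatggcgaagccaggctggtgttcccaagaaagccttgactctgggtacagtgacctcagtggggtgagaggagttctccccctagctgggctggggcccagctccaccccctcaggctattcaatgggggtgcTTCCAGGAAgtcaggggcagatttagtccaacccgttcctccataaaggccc
The Nes window held a pair of GC boxes, 73 and 62 bases before the start, and the Vim window a TATA box 32 bases before it and CCAAT boxes 196 and 94 bases before it. The Gfap window held a STAT site whose first base lies 2 bases before the annotated start; STAT3 is a known activator of Gfap in astrocytes. Among all 32851 promoters of the table, 35.7% held the GC box, 13.6% the TATA box, 37.4% the CCAAT box, 8.30% the STAT site and 7.81% the AP-1 site, which none of the 3 windows held. Ina was the fourth gene with a promoter in the table and held a pair of GC boxes, while Nefl, Nefm and Nefh were not matched. A match describes letters and does not show that a factor binds, and a missing exact match does not show that an element is absent.

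Gfap encodes the main filament protein of astrocytes. Libraries 1 to 3 had normalized counts of 1769, 2139 and 1763 for vehicle, against 2123, 3494 and 3731 for Nrg-1β1. Nrg-1β1 libraries 2 and 3 were above all vehicle libraries, and Nrg-1β1 library 1 was just below vehicle library 2, the highest of its group. With 411 to 1228 reads in the treated libraries, Gfap was the best covered of the 7 genes. Mean log2 values were 10.88 ± 0.16 for vehicle, against 11.56 ± 0.44 for Nrg-1β1 (SD, n = 3 per group), and the difference of 0.68 ± 0.34 (SE, 95% interval -0.02 to 1.39) did not pass (adjusted p = 0.403, limma). It was positive in all subsets and alternative fits, and 0.50 between libraries of like depth. All 9 other astrocyte markers also had positive differences, with a median of 0.73, and 0 of 9 passed. That median was 0.42 between libraries of like depth. Sox9, a transcription factor gene of astrocytes and stem cells, differed by 1.06, Aldh1l1, a folate enzyme gene used to mark astrocytes, by 0.87, and Gja1, which encodes connexin 43, by 0.73. The summed normalized count of these 9 markers was 24809 to 36578 in vehicle and 44604 to 46868 in Nrg-1β1, without overlap. The part of astrocyte abundance in the Gfap difference was not tested.

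The neuronal filament genes were led by Nefl, which encodes the light chain that forms the filament core. Nefl normalized counts were 447, 605 and 427 for vehicle, against 449, 434 and 814 for Nrg-1β1. The groups overlapped almost fully, with Nrg-1β1 library 3 highest, and the difference was 0.15 ± 0.30 (SE, 95% interval -0.49 to 0.79, adjusted p = 0.833, limma). This interval includes a difference of the size seen for Gfap. Ina encodes α-internexin, which neurons make before the neurofilament chains. The Ina counts were 75.5, 182 and 89.0 for vehicle, against 124, 133 and 143 for Nrg-1β1. The treated libraries lay together, between vehicle library 2 and the other vehicle libraries, and the difference was 0.30 ± 0.34 (SE, 95% interval -0.41 to 1.01, adjusted p = 0.722, limma). Between libraries of like depth the sign turned for both, to -0.44 for Ina and -0.16 for Nefl.

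The medium and heavy chains, whose long phosphorylated tails space filaments in large axons, differed from each other in pattern. Nefm normalized counts were 160.3, 164 and 58.1 for vehicle, against 87.8, 71.5 and 194 for Nrg-1β1. Library 3 stood apart in both groups, as the lowest vehicle and the highest Nrg-1β1 library. The difference of -0.10 ± 0.42 (SE, 95% interval -0.98 to 0.77, adjusted p = 0.923, limma) had no stable sign, and it was -0.59 between libraries of like depth and 0.84 with vehicle library 3 alone as control. For Nefh they were 141, 194 and 102, against 305, 204 and 185. Nrg-1β1 libraries 1 and 2 were above all vehicle libraries and Nrg-1β1 library 3 was slightly below vehicle library 2. The Nefh difference was 0.67 ± 0.32 (SE, 95% interval 0.0015 to 1.33), with an unadjusted p of 0.0495 and an adjusted p of 0.382 (limma); 13% of all genes had an unadjusted p under 0.05. Between libraries of like depth it was 0.21.

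General neuronal markers stood beside these values. Of 10 markers 9 had a positive difference and 0 passed, with a median of 0.39. That median was 0.15 between libraries of like depth. Slc17a7, which encodes the vesicular glutamate transporter of excitatory neurons, differed by 1.16, Snap25, a vesicle fusion gene, by 0.98 and Gad1, which encodes a GABA-synthesizing enzyme, by 0.86. The summed normalized count of the 10 markers was 3925 to 5896 in vehicle and 6031 to 8688 in Nrg-1β1. The part of neuronal content in the filament differences was not tested.

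**Figure D3:**
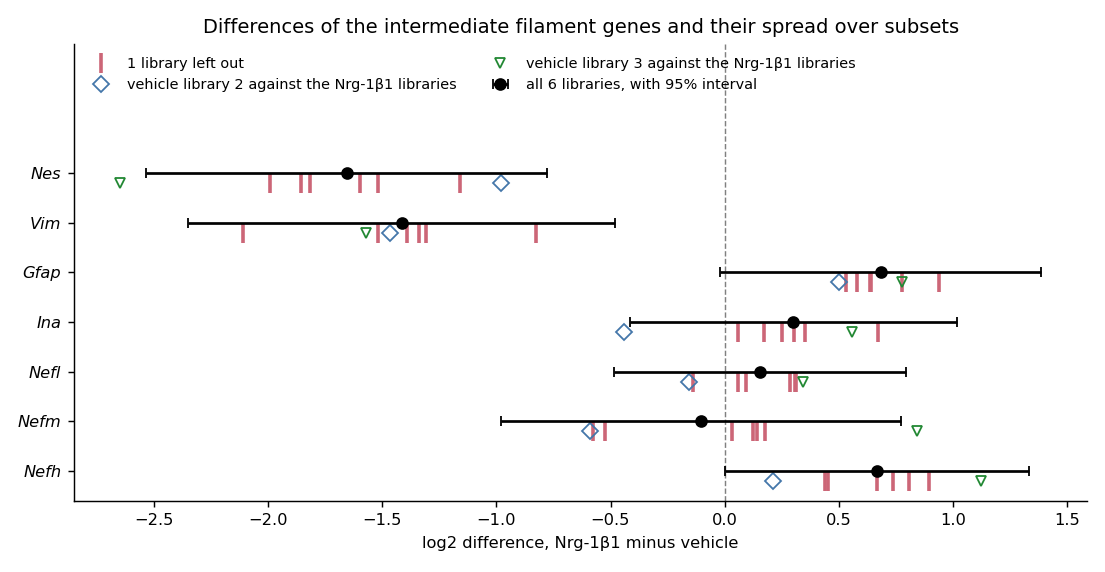
Log2 difference of each gene, Nrg-1β1 minus vehicle (horizontal axis): black points are all 6 libraries with the 95% interval from limma, red ticks leave out 1 library, and open symbols use only vehicle library 2 or only vehicle library 3 as control. All point estimates of Nes and Vim lie left of 0 and all those of Gfap and Nefh right of it, while those of Ina, Nefl and Nefm lie on both sides.

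Levels were compared between genes per kb of the principal transcript. Gfap had the highest mean over the 6 libraries, 945 ± 332 normalized counts per kb (SD, n = 6), followed by Nefl at 157 ± 45.8 and Vim at 111 ± 60.7. Nefh at 47.2 ± 17.2, Ina at 38.4 ± 11.9 and Nefm at 36.8 ± 17.1 came next, and Nes was lowest at 13.6 ± 12.7. Gfap was first in all 6 libraries. Nefl was above Vim in 5 of 6 libraries, all except vehicle library 3. Neighbours from Vim down to Nefm were not separated, since each was above the next in 4 of 6 libraries. Nes was last in 5 libraries, and in vehicle library 3 it lay above Ina, Nefh and Nefm at 38.2 per kb. In Nrg-1β1 libraries 1 and 2 Vim was below Nefh in this order, with 47.1 and 23.3 per kb against 76.3 and 51.2. The order of the group means differed in part. For vehicle, Vim (150.3) was above Nefl (146), and Nefm (38.2) above Nefh (36.5) and Ina (35.7). For Nrg-1β1, Nefl (167) was above Vim (72.4), and Nefh (58.0) and Ina (41.1) above Nefm (35.4). The order of the means over 6 libraries was the same when the union of all annotated exons replaced the principal transcript, although Vim then had 51.5 per kb.

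**Figure D4:**
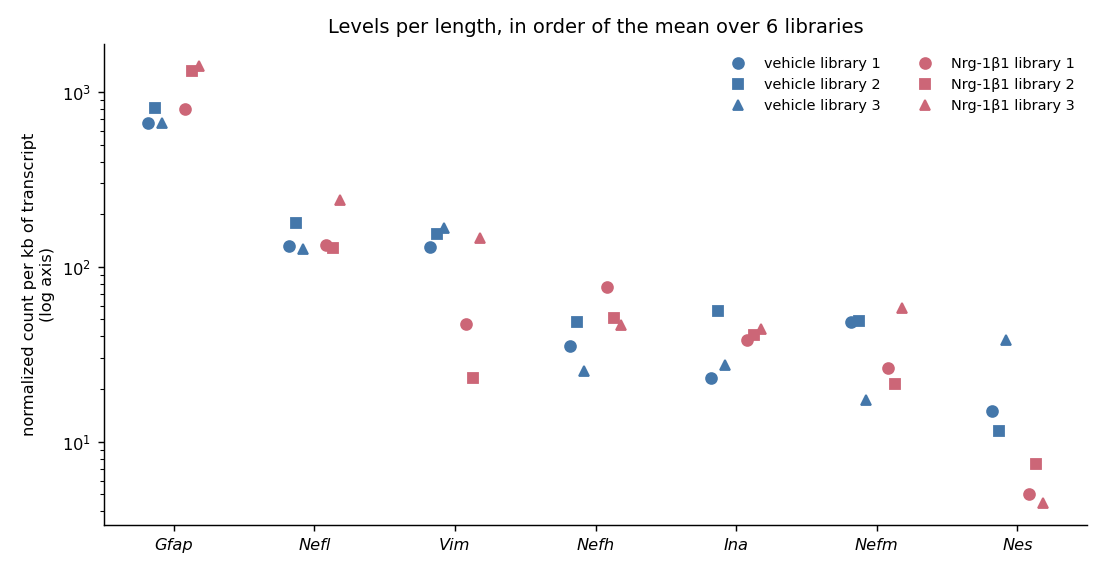
Normalized count per kb of the principal transcript (vertical log axis) for each gene and library, with genes in order of their mean over the 6 libraries. Gfap lies above all other genes in every library, from 666 to 1409 per kb, and Nes spans 4.46 to 38.2 per kb.

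Ratios between 2 genes of the same library were taken as differences of their log2(normalized count + 4) values, which depend on the scaling between libraries only through the added constant. The log2 ratio of Gfap to Vim for libraries 1 to 3 was 2.62, 2.64 and 2.26 in vehicle, against 4.31, 5.99 and 3.52 in Nrg-1β1. All Nrg-1β1 libraries were higher than all vehicle libraries, by 2.10 in the mean. The log2 ratio of Nefl to Nes was 2.23, 3.02 and 0.86 in vehicle, against 3.70, 3.13 and 4.71 in Nrg-1β1. The groups again did not overlap, although vehicle library 2 and Nrg-1β1 library 2 were close, and the means differed by 1.81, or by 1.89 with a pseudocount of 1 and 1.56 with 16. Both ratios reached p = 0.1 in an exact two-sided permutation test, the smallest value that 3 against 3 libraries allow, and 0.3 after adjustment over the 6 ratios tested.

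Within the neuronal filaments the ratios overlapped between groups. The log2 ratio of Nefh to Nefl was -1.76 ± 0.23 for vehicle, against -1.25 ± 0.79 for Nrg-1β1 (SD, n = 3 each, exact permutation p = 0.4). Nrg-1β1 library 1 had the highest value of this ratio, -0.55, and Nrg-1β1 library 3 the lowest, -2.11. The ratio of Nefm to Nefl was -2.04 ± 0.69 and -2.29 ± 0.25 (exact permutation p = 0.6, n = 3 each), and that of Ina to Nefl -2.14 ± 0.40 and -1.99 ± 0.43 (exact permutation p = 0.7, n = 3 each). The ratio of Vim to Nes was 1.47 ± 0.79 in vehicle and 1.71 ± 1.62 in Nrg-1β1 (exact permutation p = 0.9, n = 3 each). It spanned 0.14 in Nrg-1β1 library 2 to 3.38 in Nrg-1β1 library 3, and 0.63 to 2.20 in vehicle. The Nrg-1β1 ratios rest on 20, 10 and 106 reads of Vim and 6, 9 and 9 of Nes. Whether their spread exceeds counting error was not tested.

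**Figure D5:**
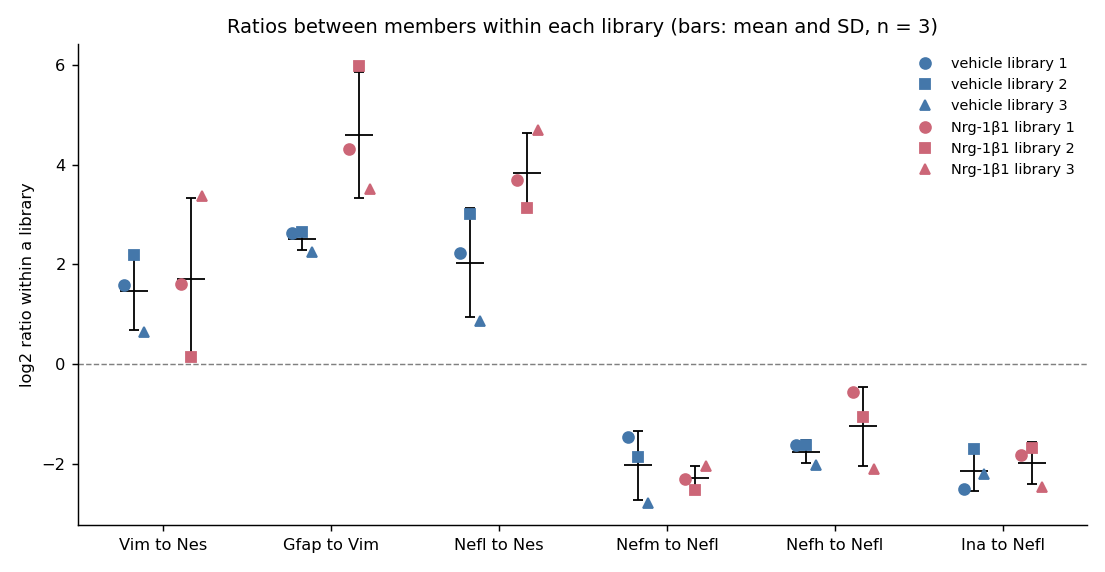
Log2 ratio between 2 members within each library (vertical axis) for 6 pairs; points are libraries and bars give the mean and SD of 3 libraries. The Nrg-1β1 points lie above all vehicle points for Gfap to Vim, 3.52 to 5.99 against 2.26 to 2.64, and for Nefl to Nes, and they overlap for the other 4 ratios.

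Other filament genes had few reads. Of 45 further cytoplasmic filament genes, among them 37 keratins, 0 passed, 21 had a positive and 24 a negative difference, and the median was -0.01, or 0.00 with the genes that lacked reads in a group placed at their bound. With limma-voom the median was 1.76 under the authors' scaling and 1.95 with library totals. These fits add their constant to the reads, so values of genes near 0 reads also depend on library depth. The part of this in the medians was not tested. The mean normalized count was under 10 for 38 of them, and 11 had 0 reads in the Nrg-1β1 libraries. Des, which encodes desmin, the filament of muscle and pericytes, was found in 73, 2 and 132 vehicle reads and in 0 reads of each Nrg-1β1 library. With a floor of 3 reads over the group, its pooled level was at least 1.49-fold lower in Nrg-1β1. Krt18, a keratin of simple epithelia, had 127, 2 and 113 reads against 0, at least 1.74-fold lower, and Krt15 had 380, 0 and 217 against 0, at least 4.28-fold lower. These bounds rest on the deep vehicle libraries 1 and 3, since vehicle library 2, of like depth to the Nrg-1β1 libraries, held 0 to 2 reads of each gene. The nuclear lamin genes Lmna, Lmnb1 and Lmnb2 differed by -0.45, -0.81 and -0.64, and 0 of 3 passed.

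Among genes that anchor, protect, modify or carry filaments 2 of 31 passed the test, 1 in each direction, beside 1.06% of all genes. Of 7 plakin linker genes 0 passed; Macf1, which joins microtubules and actin, differed by -0.67, Evpl by 0.60 and Dst, a linker of neuronal filaments, by 0.34. Among 6 turnover and chaperone genes Hspb1, a small heat shock protein gene, fell by 3.27 ± 0.56 on the log2 scale (SE, adjusted p = 0.00725, limma). The vehicle libraries held 920, 10 and 1750 of its reads, against 0, 1 and 1. Scaled for depth, the ratio of pooled levels was 28.8, with a counting interval of 7.98 to 238. This ratio rests mainly on the deep vehicle libraries 1 and 3, since vehicle library 2, of like depth, held 10 reads. Bag3, Trim2 and Dnajb6, a co-chaperone and ligase group that acts on filament proteins, differed by -0.54, -0.32 and 0.27 without passing. Of 11 neurofilament kinase and phosphatase genes 1 rose, Gsk3a, which encodes glycogen synthase kinase 3α, by 1.47 ± 0.33 (SE, adjusted p = 0.0407, limma). Its reads were 3183, 76 and 2010 for vehicle, against 107, 138 and 103 for Nrg-1β1, so each Nrg-1β1 library held more than vehicle library 2 of similar depth. Cdk5r2 and Cdk5r1, activators of the kinase Cdk5 that phosphorylates neurofilament tails, differed by 1.19 and 0.86, and Gsk3b by 0.62, without passing. The list median was 0.30. Of 7 axonal transport motor genes 0 passed, with Kif5c at -0.50, Klc1 at 0.31, Myo5a at -0.15 and a list median of 0.03. Between libraries of like depth the differences were smaller, at -2.46 for Hspb1 and 1.07 for Gsk3a. With read depth class as a term both lost their calls. Both Hspb1 and Gsk3a lost their calls whenever 1 library was left out, with adjusted p from 0.0767 to 0.301 and from 0.102 to 0.401. With all 6 libraries and limma-voom neither passed (Hspb1 0.0728 and 0.126, Gsk3a 0.0645 and 0.0911), and Gsk3a was also lost with a pseudocount of 1 (0.0626), among genes averaging at least 50 (0.0752) and after quantile normalization (0.126).

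Across the 6 libraries, the members themselves fell into different patterns. Likeness was measured as the root mean square difference between log2 values after each gene was centred on its own mean, over the 6731 genes whose normalized counts averaged at least 50. Ina and Nefl were 0.35 apart and Gfap and Nefl 0.38, while Nes and Vim were 1.05 apart, and Nes was at least that far from each other member. The nearest genes to Nes were Plat (0.20), which encodes tissue plasminogen activator, Adgre5 (0.25) and Bcam (0.26), a laminin receptor gene. Vim had no gene as close, with Ptger1 (0.32), Fcgrt (0.36) and B4galt4 (0.38) nearest. The nearest to Gfap were Fam171a1 (0.057), Nlgn2 (0.11), which encodes the postsynaptic adhesion protein neuroligin 2, and Adcy8 (0.14). Nefh lay nearest to Slc46a1 (0.017), a folate transporter gene, then to Mkrn2 (0.097) and Ormdl3 (0.12). Pcdh10 (0.10) and Taf4 (0.12) were among the genes nearest to Ina, and Nefl was nearest to Usp22 (0.060), Tspan15 (0.091) and Hp1bp3 (0.098). Nefm was nearest to Srp19 (0.11), to a gene without a symbol (0.18) and to Sat1 (0.19). These distances over 6 libraries are descriptions, picked as the smallest of 6731.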

How the data were processed

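Trimmomatic and Bowtie2 were used per the submitters' processing notes. How reads were counted, scaled and filtered, with which build, versions and strand option, is not given in the sources used here. The authors deposited log2 values for 27102 genes, of which 6779 are blank in all libraries. After 4 was subtracted from the unlogged values, 100% were whole multiples of 1 step per library, within 0.02 of a read, so they were read as log2(normalized count + 4), an inference from the values. The recovered reads gave each library's depth; intervals and floors cover counting error only, and reads carry no molecular identifiers. Of 1917 genes that carry only a number, 978 were named from RefSeq (GRCm38.p6).

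The comparison was limma 3.58.1 with an intensity trend (R 4.3.3) on the deposited log2 values, all 20323 genes, group as the only term, Benjamini-Hochberg adjustment at 0.05. The planned edgeR test did not apply because the file holds log2 values. Within-library ratios used exact permutation over the 20 splits of 6 libraries. Transcript lengths are those of the APPRIS principal transcript in GENCODE M21, used for scale only. The members, lists and tests were chosen with earlier results of these data known. From each filament-related list the text names every gene past the threshold and up to 3 more with the smallest p, and for each member its nearest genes by pattern, of which 1 is not reported here. Alternatives were other pseudocounts, a filter on low values, other scalings, limma-voom, the replicate block, a depth term and subsets of libraries. Reads of overlapping or antisense genes and of near-identical keratin copies may be mixed.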

Additional observations from a re-analysis of the deposited data

How the results depend on the processing

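None of the 7 genes passed in any alternative except with the replicate block, and Nes, Vim, Gfap and Nefh kept their sign in all 17 alternatives. Leaving out 1 library gave -1.99 to -1.16 for Nes, -2.11 to -0.83 for Vim, 0.53 to 0.94 for Gfap, 0.44 to 0.89 for Nefh, 0.06 to 0.67 for Ina, -0.14 to 0.31 for Nefl and -0.58 to 0.17 for Nefm. Nefl turned to -0.057 after quantile normalization, and to -0.16 with Ina at -0.44 when depth class was a term or only shallow libraries were used. Nefm turned to 0.11 with centring on library medians, to 0.16 and 0.18 with limma-voom under the authors' scaling and library totals, and to 0.84 against vehicle library 3 alone. The median of all genes, 0.03 with the values as deposited, was 0.25 with centring and 0.25 and 0.27 with these limma-voom fits, which also change the added constant. With 1 library left out, the ratio of Vim to Nes ran from -0.59 to 1.03, of Nefm to Nefl from -0.64 to 0.033, of Ina to Nefl from -0.034 to 0.39, of Nefh to Nefl from 0.17 to 0.95, of Gfap to Vim from 1.41 to 2.64 and of Nefl to Nes from 1.22 to 2.30. The causes were not tested.

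With the replicate block 627 genes passed, among them Nes (-1.65, adjusted p = 0.0063) and Vim (-1.41, adjusted p = 0.0048, limma). The libraries share only a number: the labels name no litter, batch or day behind it, deviations of same-numbered libraries correlated at -0.27, -0.066 and -0.30 over 6731 genes, and no library correlated best with the one of its own number. The count of genes past the threshold was 216 with all libraries, 129 with a pseudocount of 1, 49 with the filter at a mean of 50, 65 after quantile normalization, 499 after median centring, and 22 and 14 with limma-voom under the authors' scaling and library totals. It was 0 with a depth term, with shallow libraries only and against vehicle library 3 alone, where 1729, 1589 and 2059 genes lay under an unadjusted p of 0.05. Leaving out 1 library gave 0 to 56: 56 without vehicle library 1, 4 without vehicle library 3, and 0 without vehicle library 2 or Nrg-1β1 library 1, 2 or 3, where 2573, 2270, 2337 and 3385 genes lay under an unadjusted p of 0.05. Single-control fits assume that the lone vehicle library varies like the Nrg-1β1 libraries. Depth limits Nes most, with 6 to 9 reads in each Nrg-1β1 library.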
